A study of Mus musculus with 7 samples.

Results

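The genes described here are the 10 members of the MHC class II presentation pathway fixed by symbol: Ciita, Cd74, H2-Aa, H2-Ab1, H2-Eb1, H2-DMa, H2-DMb1, H2-DMb2, H2-Oa and H2-Ob. All 10 were found by Ensembl ID among the 48795 genes of the deposited table, and all 10 passed the filter on low values. The cells were sorted from spleens of female wild-type C57BL/6 mice, 8 to 12 weeks of age, on day 10 after sheep red blood cells had been injected intravenously, an antigen that elicits a T cell-dependent response. Memory B cells (MBCs, 3 libraries) were gated as B220+ CD138- IgD- CD38+ CD273+, and plasma cells (PCs, 4 libraries) as B220-low, CD138+ and IgD-. Both populations came from spleen cells passed over CD43 beads, and no transgene or other treatment was present in either group. The labels do not say how many mice a library came from, so p-values measure the spread between these libraries.

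MHC class II molecules are dimers of an alpha and a beta chain that carry peptides from endosomes to the surface of B cells, dendritic cells and macrophages, where CD4+ T cells read them. Ciita is the transactivator of the pathway: it does not bind DNA itself but docks on a complex of RFX, CREB and NF-Y factors that sits on the promoters of the class II genes. In B-lineage cells class II presentation is how a B cell obtains T cell help, and plasma cells are known to present antigen poorly. H2-Aa with H2-Ab1 forms I-A. H2-Eb1 encodes the beta chain of I-E, which C57BL/6 mice lack at the surface because the alpha chain gene is defective. Cd74, the invariant chain, guides new dimers to endosomes and blocks their groove. H2-DM, made of H2-DMa with a beta chain from H2-DMb1 or H2-DMb2, removes the last Cd74 fragment, and H2-DO (H2-Oa with H2-Ob) restrains H2-DM.

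Ciita is on chromosome 16, at chr16:10480059-10528418 (plus strand, GRCm38, GENCODE M21), and the 8 H2 genes lie together on chromosome 17, from the start of H2-Oa at position 34092340 to the end of H2-Eb1 at position 34316674. Several overlap another annotated gene: Ciita overlaps Dexi on the opposite strand, H2-DMa overlaps Brd2 on the opposite strand, and H2-Eb1 and H2-Oa each overlap an antisense transcript. Whether the counting used strand is not given in the sources used here, so reads of such pairs cannot be told apart with certainty. H2-DMb1 and H2-DMb2 are near-copies, with 93.7% identity over 1220 aligned transcript bases, and the split of reads between them is uncertain.

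Promoter stretches of 6 members are printed because these genes share an activator and moved by different amounts. They were taken from RefSeq (GRCm38.p6), which had a promoter window for 7 of the 10 members. Each runs from position -150 to -21 relative to the RefSeq start, 5′ to 3′ on the gene's strand. Capitals mark matches to the NF-Y core, CCAAT or its reverse complement ATTGG, and to an X box-like motif, searched on both strands as AG, 2 free bases, AC, 2 free bases and ATG.
H2-Oa (chr17:34092229-34092358, plus strand): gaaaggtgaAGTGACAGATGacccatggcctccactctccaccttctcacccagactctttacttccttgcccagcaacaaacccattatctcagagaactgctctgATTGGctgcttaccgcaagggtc
H2-Ob (chr17:34238755-34238884, plus strand): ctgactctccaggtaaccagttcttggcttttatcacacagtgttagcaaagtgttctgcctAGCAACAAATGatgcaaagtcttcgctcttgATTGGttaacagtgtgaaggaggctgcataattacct
H2-DMb1 (chr17:34153041-34153170, plus strand): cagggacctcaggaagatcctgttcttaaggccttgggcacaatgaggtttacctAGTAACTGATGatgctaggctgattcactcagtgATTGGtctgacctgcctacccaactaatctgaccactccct
H2-DMb2 (chr17:34145099-34145228, plus strand): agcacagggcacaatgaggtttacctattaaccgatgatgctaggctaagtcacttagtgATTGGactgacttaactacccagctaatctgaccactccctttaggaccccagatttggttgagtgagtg
H2-Eb1 (chr17:34305717-34305846, plus strand): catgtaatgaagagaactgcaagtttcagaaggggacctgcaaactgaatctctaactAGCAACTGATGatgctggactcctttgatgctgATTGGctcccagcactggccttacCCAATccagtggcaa
H2-Aa (chr17:34287844-34287973, minus strand): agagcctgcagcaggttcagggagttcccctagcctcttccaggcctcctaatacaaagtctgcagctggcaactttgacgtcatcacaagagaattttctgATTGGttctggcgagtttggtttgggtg

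The 7 members matched had 8 windows, since H2-DMa has 2 starts. An NF-Y core lay in at least 1 window of each member and in 7 of the 8 windows, where 37.4% of 32851 mouse promoter windows of 300 bases held this short motif. The X box-like motif lay in 4 of the 8 windows (those of H2-Oa, H2-Ob, H2-DMb1 and H2-Eb1), against 3.09% of all windows. In H2-Ob, H2-DMb1 and H2-Eb1 the X box-like match was followed by an NF-Y core after 20, 23 and 22 bases. That order, with 10 to 35 bases between the matches, a spacing chosen after the sequences were seen, occurred in 27 of all windows (0.0822%). In H2-Oa 87 bases separated them. The matches are a description of these letters, and a window without a match says nothing of factor binding.

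Levels are given as scaled TPM. TPM is the number of reads of a gene per length, scaled to a fixed library total, and immunoglobulin transcripts took 49.4% to 55.9% of that total in PCs against 1.65% to 3.16% in MBCs. Each library was therefore divided by its median ratio to the other libraries over 9305 genes detected throughout. At 1 TPM a transcript was represented by an estimated 6.28 to 11.6 reads per kb in MBC libraries and 9.42 to 16.6 in PC libraries. MBC replicate 3 stood apart from its group. Cd38 and Pdcd1lg2 (CD273), both used to sort MBCs, were at 6.77 and 2.59 scaled TPM in it. The germinal center genes Bcl6 (104.7), Mybl1 (336.2), S1pr2 (43.7), Gcsam (33.2) and Fas (32.9) were each higher in it than in the other 6 libraries. Calls of the members and of named list genes that change without this library are given both ways. Of the genes of the sorting markers, Sdc1 (CD138) was called higher and Ptprc (B220) lower in PCs, while Cd38, Pdcd1lg2 and Ighd were not called (limma, adjusted p = 0.292, 0.0905 and 0.768). Without MBC replicate 3, Cd38 (-3.21, adjusted p = 0.0015) and Pdcd1lg2 (-3.82, adjusted p = 0.0072) were called lower in limma. Outside the gates, the B cell genes Ms4a1, Cd22 and Fcer2a and the germinal center gene Mybl1 were called lower in PCs. The plasma cell genes Prdm1, Xbp1, Irf4 and Jchain were called higher. The germinal center genes Bcl6, Fas, S1pr2 and Gcsam had log2 fold changes of -1.24, -0.77, 0.62 and 0.81 and were not called with median-ratio scaling.

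The fall of the pathway was uneven. With all 7 libraries 5 of the 10 members were called lower in PCs (limma, adjusted p under 0.05 and a log2 fold change of -1 or below), where 2.14% of the 11573 genes tested were called lower. These were Ciita, both H2-DO genes and both H2-DM beta chain genes. The 3 classical chain genes were lower by a smaller amount and narrowly missed the threshold. Cd74 and H2-DMa had the smallest log2 fold changes with this scaling and were not called. Every member had a negative log2 fold change, and their median was -1.69 beside 0.14 over all genes tested. In 8 of the 10, every PC library lay below every MBC library, which was so for 8.68% of all genes tested. The exceptions were Cd74 and H2-DMa.

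**Figure D1:**
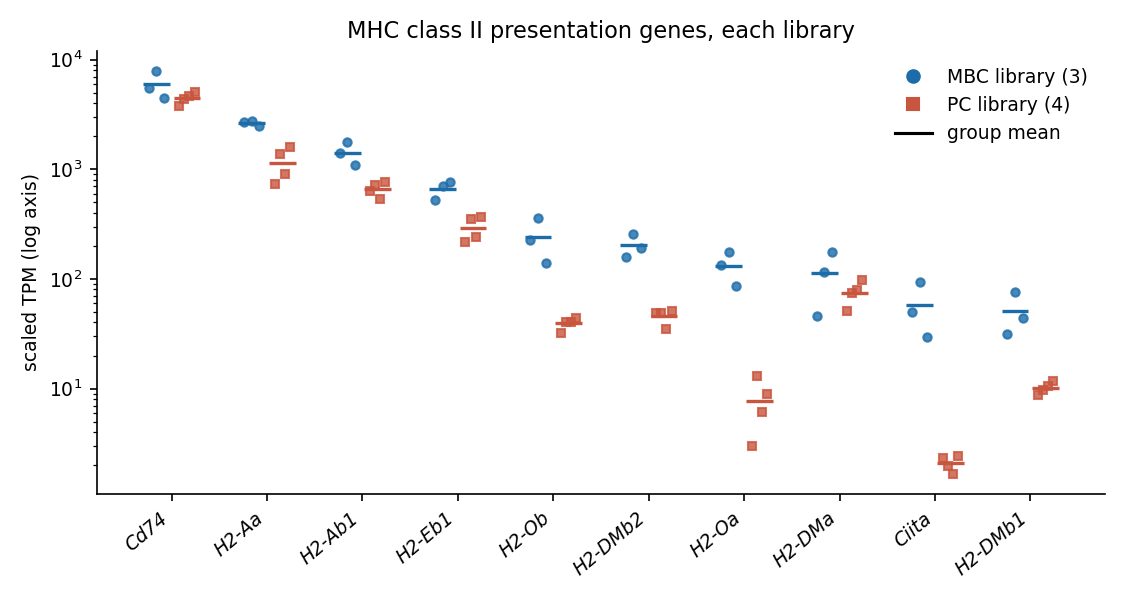
Scaled TPM (log axis) of each member in each library, with circles for the 3 MBC libraries, squares for the 4 PC libraries and lines for group means, ordered by the MBC mean. The groups do not overlap except for Cd74 and H2-DMa, and the widest gaps are those of Ciita and H2-Oa.

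Ciita, the transactivator, had 50.1, 94.0 and 29.7 scaled TPM in the MBC libraries, replicates 1 to 3, and 2.34, 1.95, 1.66 and 2.44 in the PC libraries, replicates 1 to 4. Values below follow this order. The lowest MBC library was thus more than 10 times the highest PC library. The fold between geometric means was 25.04, so PCs held 3.99% of the MBC level. On the log2(scaled TPM + 1) scale, which understates the change of low values, it fell by 4.10 (SE 0.50; limma, adjusted p = 7.8e-04), and only 4 of the 11573 genes fell further. The PC values were low but measured: 1.31 to 1.75 TPM as deposited stood for an estimated 12.7 to 29.0 reads per kb of transcript, above the floor of 3.

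H2-Oa and H2-Ob, the chains of the H2-DO inhibitor, followed. H2-Oa had 132.8, 174.4 and 85.2 scaled TPM in the MBC libraries and 2.97, 13.0, 6.14 and 8.88 in the PC libraries. It fell by 4.0 on the log2 scale (SE 0.50; limma, adjusted p = 9.1e-04), an 18.5-fold difference of geometric means. The PC libraries of H2-Oa differed more among themselves, relative to their mean, than those of any other member, with PC replicate 1 the lowest. H2-Ob had 227.5, 357.1 and 138.8 scaled TPM in the MBC libraries and 32.2, 40.6, 40.7 and 44.0 in the PC libraries. It fell by 2.49 (SE 0.37; limma, adjusted p = 0.0028), or 5.73-fold, so that 17.4% of the MBC level of H2-Ob was left in PCs against 5.40% of H2-Oa.

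The H2-DM genes, whose product loads peptides, had unlike fold changes, although the difference between the alpha and beta chain genes was not tested. H2-DMb1 had 31.6, 76.1 and 44.2 scaled TPM in MBCs and 8.67, 9.68, 10.6 and 11.8 in PCs, and its log2 fold change was -2.12 (SE 0.41; adjusted p = 0.0113 in limma). With the replicate number or the code in the sample titles as a block, H2-DMb1 was not called (adjusted p = 0.0854 and 0.0659 in limma). H2-DMb2 had 159.4, 257.6 and 191.8 in MBCs and 48.9, 48.9, 34.8 and 50.7 in PCs, with -2.11 as its log2 fold change (SE 0.32; adjusted p = 0.0029 in limma). These beta chain genes thus fell by similar amounts. With their TPM summed, which lessens the question of the split, the fall was 2.13 (SE 0.32; limma, adjusted p = 0.0027). H2-DMb1 made up 16.6% to 22.8% of the summed TPM in MBCs and 15.1% to 23.3% in PCs. H2-DMa, the alpha chain, had 45.8, 116.1 and 176.0 scaled TPM in MBCs and 50.6, 74.0, 78.6 and 96.8 in PCs. Its MBC libraries spread over a wider range than its PC libraries and enclosed them, and its log2 fold change was -0.42 (SE 0.47; limma, adjusted p = 0.635). Without MBC replicate 3, its highest library, the value was 0.00 (SE 0.44).

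The classical chains remained abundant in PCs. H2-Aa had 2706, 2757 and 2499 scaled TPM in MBCs and 733.1, 1366, 910.0 and 1584 in PCs. H2-Ab1 had 1401, 1766 and 1090 in MBCs and 629.6, 724.5, 531.5 and 759.5 in PCs. H2-Eb1 had 521.6, 701.6 and 766.6 in MBCs and 215.5, 354.3, 240.3 and 365.0 in PCs. In each of the 3 genes the PC libraries lay below all MBC libraries without touching them. The geometric means differed 2.42-fold, 2.12-fold and 2.29-fold. The log2 fold changes were -1.27 (SE 0.37) for H2-Aa, -1.09 (SE 0.32) for H2-Ab1 and -1.19 (SE 0.33) for H2-Eb1, and none was called (limma, adjusted p = 0.0648, 0.0699 and 0.0553). Without MBC replicate 3, H2-Aa (-1.32, adjusted p = 0.0464) and H2-Ab1 (-1.26, adjusted p = 0.0217) passed the threshold in limma and H2-Eb1 did not (-1.08, adjusted p = 0.0526), so that 7 members were called lower. Without that library the genes called lower among all those tested also rose in number, from 248 to 881 (8.2%).

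Cd74, the invariant chain, was the most abundant member in both populations. It had 5502, 7873 and 4419 scaled TPM in MBCs and 3743, 4332, 4610 and 5041 in PCs, and the groups overlapped. The log2 fold change was -0.39 (SE 0.38; limma, adjusted p = 0.582). As a share of the TPM of all 10 members, Cd74 averaged 51.1% ± 4.37 across MBC libraries (SD, n = 3) and 66.3% ± 4.31 across PC libraries (SD, n = 4), and the lowest PC library (62.2%) lay above the highest MBC library (55.5%). H2-Aa made up 23.7% ± 3.72 and 16.7% ± 3.48 of the members' TPM, and Ciita 0.481% ± 0.175 and 0.0318% ± 0.00766.

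**Figure D2:**
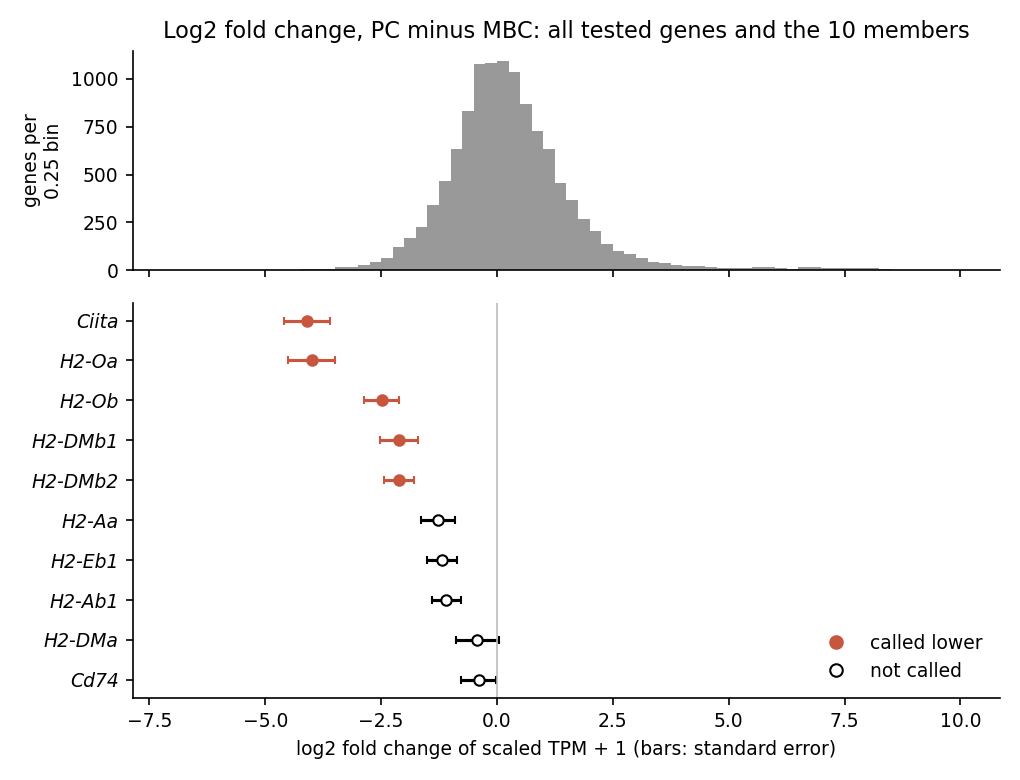
Log2 fold change (PC minus MBC) on the log2(scaled TPM + 1) scale: above, all 11573 tested genes in bins of 0.25, and below, the 10 members with standard errors, filled where called lower. Ciita and H2-Oa lie near -4 in the far left tail, H2-Ob and the H2-DM beta chain genes between -2 and -2.5, and the other 5 members between -1.27 and -0.39.

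The order of the levels was compared within each population on TPM, which is per length. TPM corrects for length only. The uncertain split of H2-DMb1 and H2-DMb2 reads and the genes that overlap H2-DMa, Ciita, H2-Eb1 and H2-Oa limit this order. In MBCs the means ran from Cd74 (5932 scaled TPM) through H2-Aa (2654), H2-Ab1 (1419), H2-Eb1 (663.3), H2-Ob (241.1), H2-DMb2 (202.9), H2-Oa (130.8), H2-DMa (112.6) and Ciita (57.9) to H2-DMb1 (50.7). The top 4 were separated from their lower neighbour in every library with no overlap of ranges, while each neighbouring pair from H2-Ob down to H2-DMb1 overlapped. In PCs the same genes held the top 4 places, at 4431, 1148, 661.3 and 293.8 scaled TPM, although the ranges of H2-Aa and H2-Ab1 overlapped there. H2-DMa followed at 75.0, above H2-DMb2 (45.8) in all 4 PC libraries, whereas H2-DMb2 was above H2-DMa in all 3 MBC libraries. H2-Oa (7.74) and Ciita (2.10) came last in PCs, and their ranges did not overlap.

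The difference between the fall of Ciita and that of its targets was tested as a ratio of deposited TPM within each library, which does not depend on how libraries are scaled. Here 12 ratios were tested by exact two-sided permutation. The 7 libraries can be divided 3 against 4 in 35 ways, so the smallest p is 0.0286. Adjusted over the 12 it became 0.0343 because 10 ratios tied at it, 8 of them ratios of Ciita. With few ties the smallest p would not pass after adjustment, so each adjusted p leans on the other ratios. Of the 9 ratios of Ciita to another member, 8 reached the smallest p and fell without overlap of the groups. Their log2 change ranged from -4.26 for Cd74 to -2.13 for H2-Ob, and the median over all 9 was -3.37. The smallest change, for H2-Oa, did not pass. Ciita ranked 5 from the lowest log2 fold change among the 11573 genes tested, so its ratio to most genes would fall. Its ratios to genes outside the members were not tested, so the count of 8 cannot be called particular to this pathway.

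Ciita stood at 0.910%, 1.19% and 0.673% of the Cd74 TPM in the MBC libraries and at 0.0626%, 0.0449%, 0.0360% and 0.0484% in the PC libraries. The log2 ratio averaged -6.79 ± 0.41 across MBC libraries (SD, n = 3) and -11.05 ± 0.33 across PC libraries (SD, n = 4), a 19.1-fold difference (exact permutation test, p = 0.0286; adjusted p = 0.0343). Against H2-Ab1 the ratio was 3.57%, 5.32% and 2.73% in MBCs and 0.372%, 0.269%, 0.312% and 0.321% in PCs, an 11.8-fold difference with the same p. The changes against H2-Aa (-3.37) and H2-Eb1 (-3.45) were of the same size. Against H2-DMa the change was -4.22, and here MBC replicate 3 (16.9%) stood well below MBC replicates 1 and 2 (109.3% and 81.0%), though above all PC libraries (2.11% to 4.64%).

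Ciita also fell relative to the members that were called lower, but by less. The log2 change of the ratio was -2.51 against H2-DMb2, -2.42 against H2-DMb1 and -2.13 against H2-Ob (exact permutation test, p = 0.0286 and adjusted p = 0.0343 for each). Against H2-Oa it was -0.43, with log2 ratios of -1.41, -0.89 and -1.52 in MBCs and -0.34, -2.74, -1.89 and -1.86 in PCs (exact permutation test, p = 0.514; adjusted p = 0.514). PC replicate 1, with its low H2-Oa, lay above all MBC libraries, and PC replicates 2 to 4 lay below them. The pooled SD of this ratio was 0.80, so a difference of that order was not detectable, and the p does not show that Ciita and H2-Oa fell alike.

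**Figure D3:**
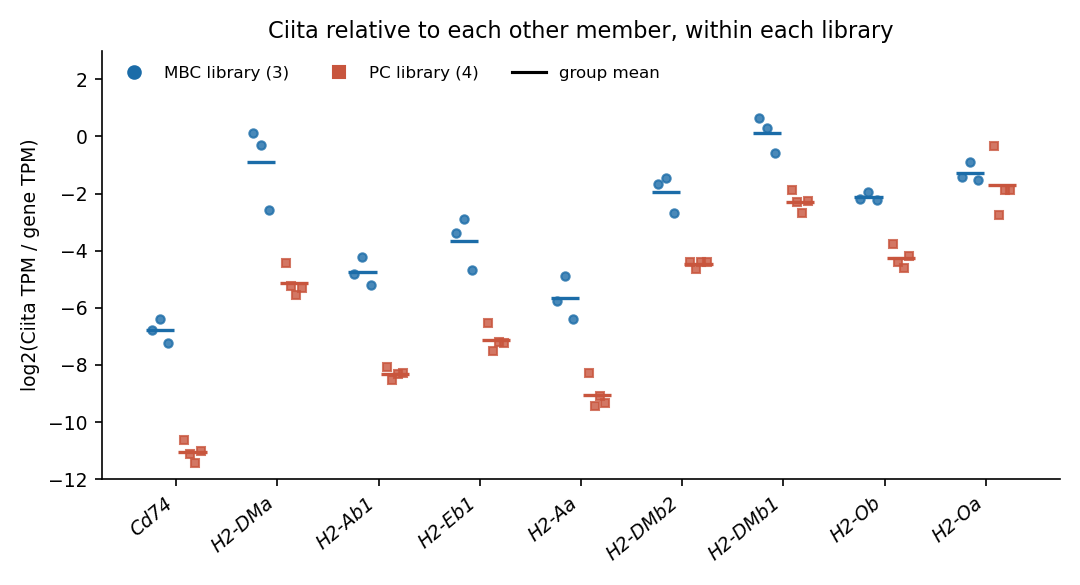
Log2 ratio of Ciita TPM to the TPM of each other member within each library, with circles for the 3 MBC libraries, squares for the 4 PC libraries and lines for group means, ordered by the change. PC libraries lie below all MBC libraries for 8 members and overlap them for H2-Oa.

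The 3 ratios among targets compared the chains of the loading route. The log2 ratio of Cd74 to H2-Ab1 averaged 2.05 ± 0.10 across MBC libraries (SD, n = 3) and 2.75 ± 0.26 across PC libraries (SD, n = 4), a rise of 0.70 or 1.62-fold without overlap (exact permutation test, p = 0.0286; adjusted p = 0.0343). H2-Aa to H2-Ab1, the chains of I-A, changed by -0.19, from 0.93 ± 0.28 to 0.74 ± 0.37, and the groups overlapped (exact permutation test, p = 0.514; adjusted p = 0.514). The ratio of H2-DMa to H2-Oa, an alpha chain of the loader against that of its inhibitor, rose by 3.79, or 13.8-fold (exact permutation test, p = 0.0286; adjusted p = 0.0343). In MBCs H2-DMa was 34.5%, 66.5% and 206.7% of H2-Oa, and in PCs between 570.0% and 1701%. The adjusted p-values of Cd74 to H2-Ab1 and of H2-DMa to H2-Oa passed only through ties with the ratios of Ciita.

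How many members pass a test on absolute levels depended on the scaling. Of the 10 members, 5 were called lower with median-ratio scaling, 8 after the immunoglobulin genes were removed and TPM rescaled, 9 with quantile normalization and 10 on TPM as deposited. All 10 had a negative log2 fold change under each of the 4. The median log2 fold change of all genes was 0.14, -0.11, -0.06 and -0.91 under these scalings, and the genes called higher and lower numbered 742 and 248, 393 and 431, 675 and 460, and 472 and 3018. Relative to that median, Ciita lay at -4.25, -4.43, -4.32 and -4.32. H2-Ab1 lay at -1.23, -1.26, -2.87 and -1.5, and Cd74 at -0.53, -0.56, -2.69 and -0.80. The position of Ciita and H2-Oa thus hardly moved, while the abundant genes Cd74, H2-Aa, H2-Ab1 and H2-Eb1 lay furthest down under quantile normalization.

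**Figure D4:**
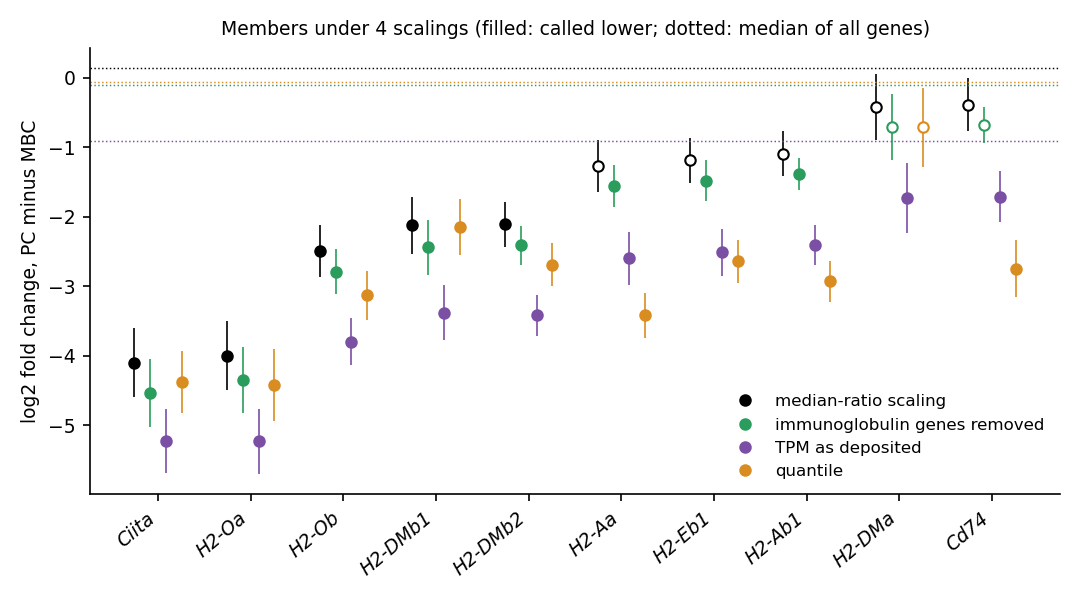
Log2 fold change (PC minus MBC) of each member under 4 scalings of the libraries, with standard errors. Filled points were called lower, and dotted lines mark the median of all tested genes under each scaling, which is lowest (-0.91) for TPM as deposited.

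Genes around the pathway were described from lists of its known parts. Of the 7 genes of the promoter complex on which Ciita docks, none was called in limma with median-ratio scaling. Nfya was called lower under each of the 3 other scalings, Creb1 on TPM as deposited and with immunoglobulin genes removed, and Rfx5 on TPM as deposited. Of all genes tested, 26.1% were called lower on TPM as deposited, 3.8% with immunoglobulin genes removed and 3.97% with quantile normalization. The RFX subunit Rfx5 averaged 21.4 ± 3.39 scaled TPM across MBC libraries (SD, n = 3) and 9.92 ± 2.72 across PC libraries (SD, n = 4), and its log2 fold change of -1.06 was not called (adjusted p = 0.144). The subunits Rfxap and Rfxank had log2 fold changes of 1.68 and -0.40 and were spread widely, with Rfxap listed at 0 in MBC replicate 1 and up to 13.4 scaled TPM in PCs. The NF-Y subunit Nfya, at 37.6 ± 17.9 and 11.6 ± 0.551 scaled TPM, came nearest the threshold (-1.49, adjusted p = 0.0690). Nfyb (-0.21) and Nfyc (-0.09) differed by less than the spread. The median of the 7 was -0.40 beside 0.14 over all genes, and without MBC replicate 3 the list held 2 genes called lower (Nfya and Creb1) and 1 called higher (Rfxap).

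Factors known to act on Ciita itself moved in both directions. Of 8 listed, 7 were tested, and 3 were called lower and 2 higher, beside 2.14% and 6.41% of all genes tested. Pax5, the B cell identity factor, fell from 223.7, 789.3 and 137.6 scaled TPM in MBCs to 48.3, 21.2, 16.1 and 25.2 in PCs (-3.46; limma, adjusted p = 0.0063). Ebf1 (-2.37, adjusted p = 0.0061) and Irf8 (-1.91, adjusted p = 0.0145), also B cell regulators, were called lower in limma, and Spi1, which encodes PU.1, was not (-1.39, adjusted p = 0.0602), although it was without MBC replicate 3 (-1.53, adjusted p = 0.0310). Prdm1, whose product Blimp-1 is a known repressor of Ciita, was at 9.98, 0.00 and 1.89 scaled TPM in MBCs and at 91.3, 103.7, 112.1 and 106.2 in PCs (5.04; limma, adjusted p = 0.0017). Irf4 rose by 3.45 (limma, adjusted p = 5.4e-04). These 5 calls stood under all 4 scalings. The interferon pathway gene Irf1 was not called (0.00, adjusted p = 0.999).

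**Figure D5:**
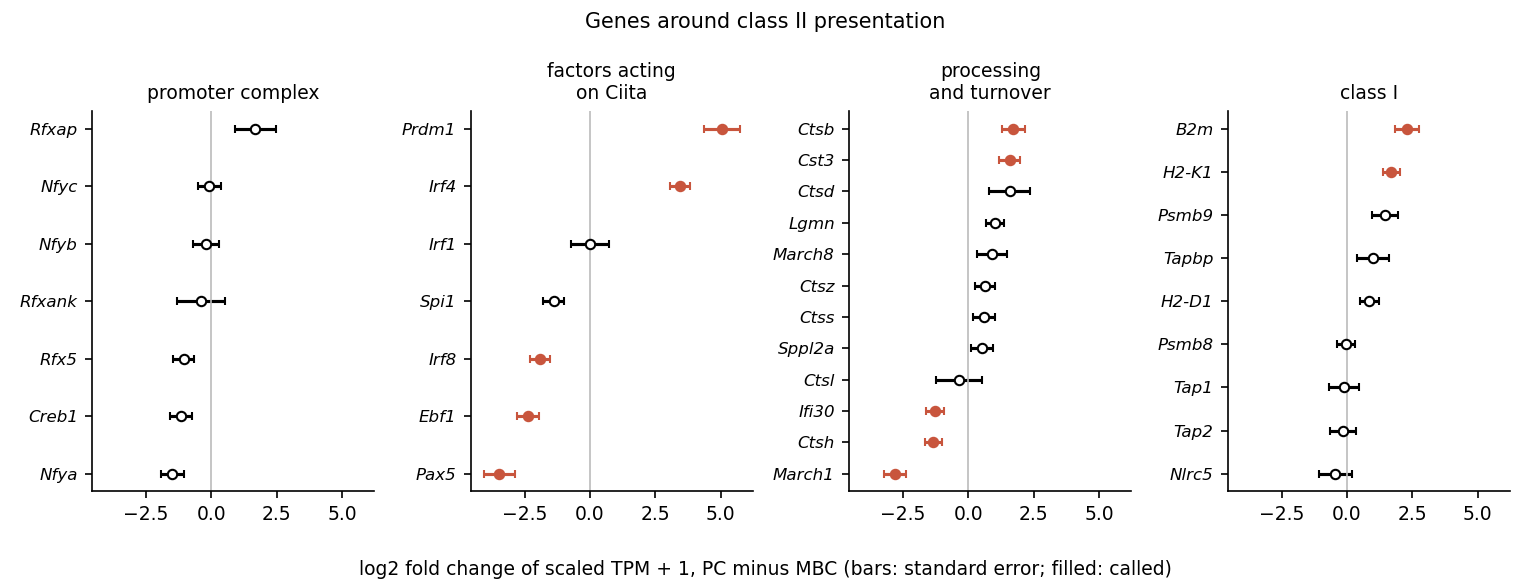
Log2 fold change (PC minus MBC) with standard errors for the tested genes of 4 lists, filled where called. None of the promoter complex was called, the factors acting on Ciita and the processing genes held calls in both directions, and B2m and H2-K1 were called higher among class I genes.

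Among 12 genes of antigen processing and class II turnover, 3 were called lower and 2 higher, beside 2.14% and 6.41% of all genes tested. March1, a ubiquitin ligase that removes class II from the surface of B cells, had 48.1, 72.7 and 34.6 scaled TPM in MBCs and 7.42, 4.06, 6.66 and 7.25 in PCs (-2.81; limma, adjusted p = 0.0030). Ctsh, a cathepsin (-1.34, adjusted p = 0.0317), and Ifi30, a thiol reductase of endosomes (-1.28, adjusted p = 0.0410), were also called lower in limma. Cathepsin B (Ctsb, 1.72, adjusted p = 0.0469) and the cathepsin inhibitor cystatin C (Cst3, 1.58, adjusted p = 0.0388) were called higher in limma. Neither passed on TPM as deposited (0.45 and 0.27). Ctsb also did not pass in limma with immunoglobulin genes removed (1.47, adjusted p = 0.0830) or without MBC replicate 3 (1.35, adjusted p = 0.0516). Cst3 did not pass in limma with quantile normalization (1.23, adjusted p = 0.066). Ctss, the cathepsin that trims Cd74 in B cells, had 259.9, 287.4 and 98.8 scaled TPM in MBCs and 287.6, 353.0, 199.0 and 377.1 in PCs, and was not called (0.60, adjusted p = 0.438). The median of the list was 0.61 with median-ratio scaling. Ctss, Ctsz, Lgmn and Sppl2a, positive with that scaling, were negative on TPM as deposited, where the median of all genes was -0.91. Leaving out any 1 library other than MBC replicate 3 reduced the genes called lower from 3 to 1, and without any 1 of the PC libraries none was called higher. H2-Eb2, a further class II beta chain gene, was low in both groups (17.1 ± 7.34 and 4.72 ± 1.97 scaled TPM). In limma it was not called with median-ratio scaling (-1.66, adjusted p = 0.0834), with immunoglobulin genes removed or with quantile normalization. It was called lower in limma on TPM as deposited (-2.84, adjusted p = 0.0049), as were 26.1% of all genes tested. Without MBC replicate 3 H2-Eb2 was also called lower in limma (-1.85, adjusted p = 0.0406). The pseudogene H2-Ea-ps was listed at 0 in 6 of 7 libraries.

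Class I presentation, the pathway most like it, was compared on 9 genes. None was called lower, and 2 were called higher in limma, beside 6.41% of all genes tested. On TPM as deposited Psmb8, an immunoproteasome subunit, was called lower in limma (-1.35, adjusted p = 0.0180) and none higher. With that scaling 26.1% of all genes tested were called lower. Without MBC replicate 3 Psmb9 was also called higher (1.9, adjusted p = 0.0251). B2m, the light chain of class I, was at 1743, 2197 and 723.6 scaled TPM in MBCs and 6616, 8188, 5589 and 7312 in PCs (2.29, adjusted p = 0.0129). H2-K1 rose from 306.4 ± 85.2 (SD, n = 3) to 974.5 ± 87.5 (SD, n = 4; 1.70, adjusted p = 0.0091). Neither B2m nor H2-K1 was called on TPM as deposited (0.96 and 0.38) or with quantile normalization (0.16 and 0.35), where their values stayed positive. Nlrc5, the class I counterpart of Ciita, had 74.8, 28.6 and 9.52 scaled TPM in MBCs and 27.1, 16.9, 25.7 and 13.3 in PCs, with a log2 fold change of -0.45 (limma, adjusted p = 0.706). With median-ratio scaling the median over the 9 class I genes was 0.85 beside -1.69 over the 10 class II genes. H2-D1, the middle gene of the 9 under each scaling, was at 0.57 with immunoglobulin genes removed and -0.13 with quantile normalization. It was at -0.47 on TPM as deposited, where the median of all genes was -0.91. The sign of the class I median thus depended on the scaling. The difference between the lists was not tested.

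Other cells that express class II could add to these levels, so their markers are given for the whole list. The 8 dendritic cell markers summed to 6.18 to 11.5 scaled TPM in MBCs and 1.32 to 6.78 in PCs, with Clec10a at 0 in all 7 libraries and Flt3 the only marker that reached the filter. The 7 macrophage markers summed to 5.68 to 37.6 in MBCs and 21.8 to 33.5 in PCs, with C1qa at 0 in all MBC libraries and at most 0.711 in PCs. Single MBC libraries held more of other macrophage markers, with C1qb at 15.0 scaled TPM in MBC replicate 1 and Lyz2 at 21 in MBC replicate 2, against at most 3.21 and 5.96 in PCs. Cd68 held most of the PC sum (17 to 25.2). The PC libraries also held T cell transcripts, with the 5 markers summing to 14.6 to 34.6 scaled TPM against 0 to 1.08 in MBCs, and Cd3e and Trac were called higher (limma, adjusted p = 0.0081 and 0.0191). Mouse T cells do not normally express class II. The part of any of these cells in the members' values was not tested. In bulk samples, fewer cells that express a gene and less RNA of it per cell cannot be told apart.

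B cell genes outside the pathway also differed among themselves. Fcer2a (-4.17) and Cd22 (-3.75) had log2 fold changes near that of Ciita, and Ms4a1 (-2.57) near that of H2-Ob. The receptor chains Cd79b (-1.05; limma, adjusted p = 0.108) and Cd79a (-0.36, adjusted p = 0.605) were not called with median-ratio scaling. Cd79b was called lower under each of the 3 other scalings. Cd79a was called lower on TPM as deposited (-1.68) and with quantile normalization (-1.84). Of all genes tested, 26.1% were called lower on TPM as deposited. Over the 7 libraries, which fall into 2 groups so that any gene that differs between them correlates, the 5 genes outside the pathway most like Ciita by Pearson's r of log2(scaled TPM + 1) were Ablim1 (0.998), Tnfrsf13c (0.996), Smim14, Cr2 and Tlr9 (each 0.995). Tnfrsf13c encodes the BAFF receptor and Cr2 the complement receptor CD21. Within the pathway, r with Ciita was between 0.869 and 0.990 for 7 members, 0.734 for Cd74 and 0.281 for H2-DMa. The genes most like Cd74 were Zik1, Uhrf1bp1l (each 0.988), Shld2 (0.984), Cep120 (0.983) and Kif3b (0.979), none of which was called with all 7 libraries.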

How the data were processed

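RNA of sorted splenic MBCs (3 libraries) and PCs (4 libraries) was made into cDNA with a Nugen kit and read on the Illumina HiSeq system. The authors deposited TPM per Ensembl gene for all 7 libraries. The submitters' processing notes name STAR 2.5.2a, RSEM 1.3.0, DESeq2 1.18.1 and GRCm38, with no role or order, and the annotation release is not given in the sources used here. Symbols came from GENCODE M21 by ID and matched 48349 of 48795 genes. The labels gave each library its group and replicate number.

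TPM holds no read totals, so depth was estimated from low values that fall on whole multiples of 1 read. The floor is 3 reads per kb, which covers counting error only. TPM was scaled by median ratios. Of the 48795 genes, 11573 reached 1 TPM in 3 or more libraries, and limma 3.58.1 (R 4.3.3, eBayes with trend, no covariate) compared the groups on the log2 scale after 1 was added. A call needed a Benjamini-Hochberg adjusted p under 0.05 and an absolute log2 fold change of 1. Within-library ratios used deposited TPM and an exact two-sided permutation test in scipy 1.17.1. The procedure was tested on simulated data. There limma called 92 of 100 genes with a log2 change of 4 and 42 of 100 with a change of 2. Of 11373 unchanged genes it called 3. A change of 2 was thus missed more often than found, and a gene not called may still differ. Alternatives were 3 other scalings, a pseudocount of 0.1, no filter, leaving out each library, the blocks of replicate number or title code, and 1 title prefix alone. No 2 libraries were copies, since at least 99.3% of the genes above 0 in either library of a pair differed.

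The members and lists were chosen with earlier results of these data known, the fall of Ciita among them. For this reason no p of the gene comparison was adjusted over a list. The 12 ratios, adjusted together, draw on the same members, so the limit holds for their p-values too. Text names all members, list genes that were called, uncalled list genes with high levels or a central role, and the 5 genes most like Ciita and Cd74. The uncalled list genes beyond the highest of each list (among them Rfx5, Rfxap, Rfxank, Nfya, Nfyb, Nfyc, Creb1, Spi1, Irf1, Nlrc5, H2-Ea-ps, Cd79b, Psmb8, Psmb9, Fas, S1pr2, Gcsam, C1qb, Lyz2) were chosen after their values were seen. Promoter windows from RefSeq held 7 members. Some list genes are not reported here.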

Additional observations from a re-analysis of the deposited data

Results flagged for a closer look

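In the 4 PC libraries, 10 member levels and 12 ratios were examined for a library far from the rest, by the gap to its nearest neighbour as a share of the group's range. For H2-DMb2 the lowest PC library, PC replicate 3 (34.8 scaled TPM), lay apart from the others (48.9 to 50.7), with a gap of 0.887 of the range. For the log2 ratio of Ciita to H2-DMb2, PC replicate 2 (-4.65) lay apart from the others (-4.39 to -4.38), with a gap of 0.958 of a range that was itself narrow. Chance alone flags about 1 in 20 groups, and 2 of 22 were flagged. In both cases all PC libraries stayed below all MBC libraries.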

How the results depend on the processing

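The count of members called lower in PCs was 5, and it was 8 without immunoglobulin genes, 9 with quantile normalization and 10 on TPM as deposited. Leaving out 1 library gave 5 to 7, and only MBC replicate 3 changed it (to 7), and the more frequent title prefix alone also gave 7. A pseudocount of 0.1 and no filter left it at 5, and summing the H2-DM beta chain genes gave 4 of 9. Over all genes the count called lower ranged from 60 to 3018 around 248. Among the lists, the promoter complex held 0 to 3 genes called lower across these alternatives, the factors acting on Ciita 1 (with the replicate number as a block) to 4 around 3, and the processing genes 1 to 3, while 0 to 2 processing and 0 to 3 class I genes were called higher. No member changed sign under any alternative run. The median change of the log2 ratio of Ciita was -3.37, -2.83 with 1 added to scaled TPM, -3.63 within the prefix and -3.73 to -2.97 when 1 library was left out. The count of ratios past the threshold (10 of 12) was the same with 1 added. It could not be computed without a library, within the prefix or within pairs, since the smallest p is then 0.0667 or more.

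Replicate numbers and title codes are shared between the groups, but nothing says what they mark. Deviations from the group means correlated at 0.109, -0.04 and -0.083 for equal numbers and at 0.109, -0.004 and 0.222 for equal codes. So few correlations cannot decide whether libraries are paired, and neither numbers nor codes were a block in the main comparison. With either as a replicate block 4 members were called, without H2-DMb1 (adjusted p = 0.0854 and 0.0659 in limma), and the median ratio change was -3.27 within numbers and -3.24 within codes. MBC replicates 1 and 3 correlated best with the PC library of their own code, and MBC replicate 2 did not. The other prefix has 1 library per group and gives no test.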
